A study of Rattus norvegicus with 2 samples.

Results

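The genes of pituitary adenylate cyclase-activating polypeptide (PACAP), vasoactive intestinal peptide (VIP), their receptors and further peptides of adrenal nerve fibres or minor chromaffin subsets were read in the left adrenal medulla of the rat. They were chosen by symbol, as every probe set annotated to exactly 1 of 10 genes: Adcyap1, Vip, Adcyap1r1, Vipr1, Vipr2, Tac1, Calca, Sst, Pdyn and Cartpt. All 10 genes were found, with 18 probe sets, among 14217 genes that 20826 probe sets name singly. The rats were adult male Sprague-Dawley animals in 2 groups. The 2RH30 group received human insulin at 2 IU/kg 2 times per day for 3 days (with 1 injection on the last of these days), a model of recurrent hypoglycemia (RH), and the 2RS30 group received saline on the same schedule. Both groups were then fasted overnight and given an insulin infusion with a clamp of glucose on day 4, at 40 to 50 mg/dL by the sample labels (the study's text gives a narrower target), and were sacrificed 30 min after the target was reached, so both were hypoglycemic when the tissue was taken. RNA of 6 rats was pooled for 1 Affymetrix rat genome array per group. No test was therefore possible, animals cannot be compared with one another, and every value below describes these 2 pools.

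PACAP and VIP are closely related peptides. PACAP is released together with acetylcholine from the splanchnic nerve endings on chromaffin cells and sustains catecholamine secretion under strong or lasting stimulation. Its preferred receptor, PAC1, is encoded by Adcyap1r1, and the receptors VPAC1 and VPAC2, encoded by Vipr1 and Vipr2, bind PACAP and VIP alike. All 3 act mainly through Gs, adenylyl cyclase and protein kinase A, and PAC1 also through phospholipase C. The splanchnic preganglionic neurons have their cell bodies, which hold most of their mRNA, in the spinal cord, whereas chromaffin cells and ganglion neurons within the gland carry their own.

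Values are on the deposited log2 scale, and a difference is 2RH30 minus 2RS30. A difference of 1 or more in size is a difference of 2-fold or more, the fold threshold of the study. The study's results also name a P-value cut-off, which 1 array per group does not allow here. The array medians were 5.50 in 2RS30 and 5.51 in 2RH30, and the 5th percentiles were 3.67 and 3.16. A probe set below the median on both arrays is called dim. The differences followed the level of the probe set, with a median of -0.38 in the dimmest of 20 level bins and 0.49 in the brightest. Each difference is therefore also given level-adjusted, with a lowess curve of this trend subtracted. The bacterial control transcript bioB, added to the hybridization, differed by -3.25. On the 2RS30 array 2335 probe sets, 7.52% of all, carried 1 of 10 values that 50 or more probe sets shared to the last digit, and on the 2RH30 array 0 did. The parts of these array features in the results were not tested.

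Of the 10 genes, each read from its probe set of highest mean level, 2 were 2-fold or more higher in 2RH30, Pdyn and Cartpt, beside 11.5% of all genes. Another 2 were 2-fold or more lower, Adcyap1 and Vip, beside 9.62% of all genes. A share of 10 genes moves in steps of 1 gene, and both counts are within about 1 gene of the share over all genes. Level-adjusted, 0 were 2-fold or more higher, beside 8.95% of all genes, and 1 was lower, Adcyap1, beside 9.31%. The median difference over the 10 genes was 0.10, and over all genes it was 0.11. Level-adjusted, these medians were 0.11 and 0.02. Counted by probe set, 2 of 18 were 2-fold or more higher and 4 lower, beside 11.8% and 10.4% of all probe sets of 1 gene. The genes of the nerve peptides and their receptors thus lay on both sides of 0.

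Of the 10 genes 3 were dim in their brightest probe set: both ligand genes, Adcyap1 and Vip, and the receptor gene Vipr1, beside 30.6% of all genes. By probe set, 6 of the 18 were dim, which are both probe sets of Adcyap1, the single one of Vip, both of Vipr1 and 1 of the 3 of Calca. The other 12 were above the median on at least 1 array. All 4 probe sets of Adcyap1r1, the single probe sets of Tac1 and Cartpt, 1 of Calca and 1 of Pdyn were above it on both arrays.

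**Figure D1:**
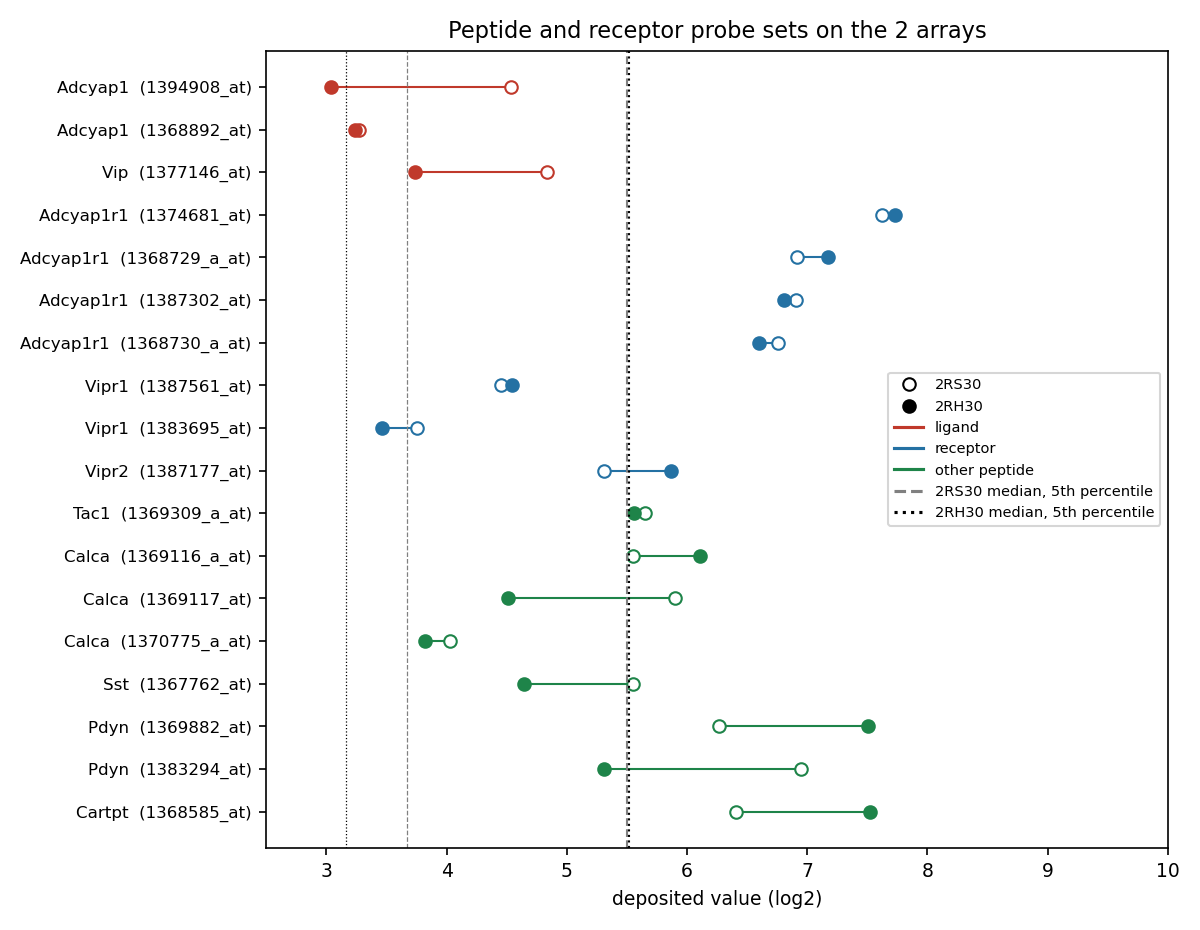
Deposited value (log2, horizontal axis) of each of the 18 probe sets (vertical axis) in 2RS30 (open) and 2RH30 (filled), coloured by role, with 1 array per point. Vertical lines mark the median and the 5th percentile of each array; the 6 dim probe sets lie left of both medians, and the 4 of Adcyap1r1 lie right of them.

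The ligand genes read low on both arrays. Adcyap1, which encodes PACAP, read 4.54 in 2RS30 and 3.04 in 2RH30 in probe set 1394908_at, and 3.27 and 3.24 in 1368892_at. The first probe set was lower in 2RH30 by 2.82-fold and the second barely differed between the arrays, so the gene has no single direction of any size. The differences were -1.50 and -0.03 as deposited, and -1.05 and 0.39 level-adjusted, so that the second changes sign. In 2RH30 the first lay among the lowest 5% of values. The second did so in 2RS30, where its value is 1 of the shared values, carried by 76 probe sets.

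Vip, which encodes VIP, read 4.84 in 2RS30 and 3.74 in 2RH30 in its only probe set. It was lower in 2RH30 by 1.10 on the log2 scale, which is 2.14-fold, and level-adjusted by less than 2-fold, at -0.72. Both ligand genes were thus lower in 2RH30 in their probe set of highest mean level, the only one for Vip. The second probe set of Adcyap1 barely differed, and dim genes tended to read lower in 2RH30. Of all dim genes, 14.1% were 2-fold or more lower, and their median difference was -0.15. The probe sets nearest in level, 500 on each side, were compared by the size of their difference in either direction. Of these, 71.7% had one smaller in size than Vip, and 86.4% one smaller in size than Adcyap1 in 1394908_at. In a pooled tissue, fewer cells or fibres of a kind and less RNA in each cannot be told apart.

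Vip is a classic cAMP-responsive gene, and the cAMP response element is the DNA site bound by CREB, so its promoter is shown. The RefSeq window from 250 bases before the start of Vip to 50 after it does not hold the full palindrome TGACGTCA, but holds its 5-base core TGACG at bases -97 to -93 from the start. The stretch around it, at chr1:44470347-44470426 (GRCr8, plus strand), reads as follows, with the core in capitals.
Vip: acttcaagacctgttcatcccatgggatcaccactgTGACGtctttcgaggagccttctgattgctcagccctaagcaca

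Of the receptor genes, Adcyap1r1 was read by the most probe sets. These 4 read 7.62, 6.92, 6.91 and 6.76 in 2RS30, and 7.73, 7.17, 6.81 and 6.60 in 2RH30, in the same order. Each lay more than 1 above the median of both arrays, and in each the arrays differed by little. The differences were 0.11, 0.25, -0.10 and -0.16, so that 2 were above 0 and 2 below it. Level-adjusted they were all below 0, between -0.43 and -0.07, since most probe sets of that level read higher in 2RH30. The 4 differences spanned 0.41, and of 290 genes with 4 probe sets 97.2% had a wider span, with a median of 1.57. Of the 85 such genes with no dim probe set, 94.1% did. The 2RS30 value 6.92 of the probe set with the largest of the 4 differences was shared by 134 probe sets. Between 12.8% and 28.4% of the probe sets nearest in level to each had a difference smaller in size. The SD between probe sets of 1 gene, 0.56 at levels of 7 and above and 0.83 at levels of 5 to 7, was larger than every one of these differences. It holds no spread between animals.

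Vipr1, which encodes VPAC1, was dim in both probe sets, with 4.45 and 3.76 in 2RS30 and 4.55 and 3.46 in 2RH30. Its differences of 0.10 and -0.30 went opposite ways as deposited and were both above 0 level-adjusted, at 0.40 and 0.15. Vipr2, which encodes VPAC2, read 5.31 in 2RS30, below the median, and 5.86 in 2RH30, above it. Its difference was 0.55, which is 1.47-fold, and 0.46 level-adjusted. Neither gene reached the SD that probe sets of 1 gene showed at its level, which was 0.65 for dim ones and 0.83 for the level of Vipr2. The 3 receptor genes thus all lay within 2-fold between the pools, where 11.5% of all genes were 2-fold or more higher and 9.62% lower.

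**Figure D2:**
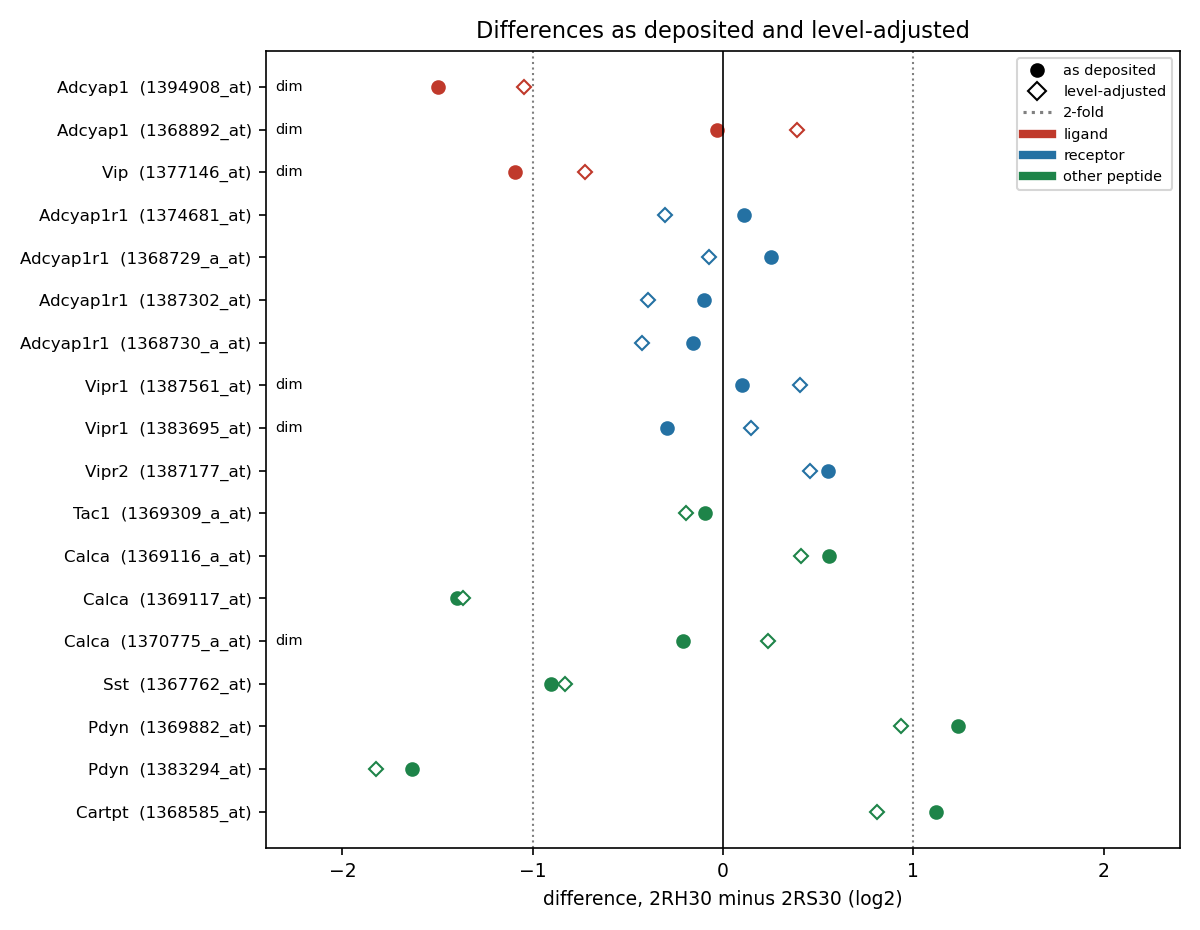
Value in 2RH30 minus that in 2RS30 (log2, along the horizontal axis) for each of the 18 probe sets (vertical axis), as deposited (circles) and level-adjusted (diamonds), coloured by role, with dim probe sets marked. Dotted lines mark a 2-fold difference; the receptor genes lie between the lines, and the 2 probe sets of Pdyn lie on opposite sides beyond them as deposited.

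The other peptides mark sensory or intrinsic fibres and small chromaffin subsets. Cartpt, which encodes the peptide CART, read 6.41 in 2RS30 and 7.53 in 2RH30 in its single probe set, above the median on both arrays. It was 2.17-fold higher in 2RH30, a difference of 1.12, and under 2-fold level-adjusted, at 0.81. Of probe sets near it in level, 87.2% had a difference smaller in size, in either direction. Among genes that were not dim, 15.0% were 2-fold or more higher, so that a difference of this direction and size was common.

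Pdyn, which encodes prodynorphin, the precursor of the dynorphins that act on the kappa opioid receptor, gave 2 opposite readings. Probe set 1369882_at read 6.27 in 2RS30 and 7.50 in 2RH30, and probe set 1383294_at read 6.95 and 5.31. The first was thus higher in 2RH30 by 2.35-fold and the second lower by 3.11-fold, although neither was dim. The differences were 1.23 and -1.64 as deposited, and 0.93 and -1.83 level-adjusted. Their span of 2.87 was wider than that of 98.2% of the 3061 genes with 2 probe sets, whose median was 0.70. Of 4525 genes with 2 or more probe sets, 139, or 3.07%, had 1 probe set 2-fold or more higher and another 2-fold or more lower, and Pdyn was the one among the 5 genes here with several probe sets. No direction can be given for Pdyn, and its count among the higher genes above rests on the choice of the brighter probe set.

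Calca, which encodes calcitonin and, by alternative splicing, calcitonin gene-related peptide (CGRP) of sensory fibres, also disagreed between probe sets. Probe set 1369116_a_at read 5.55 in 2RS30 and 6.11 in 2RH30, probe set 1369117_at read 5.90 and 4.51, and the dim 1370775_a_at read 4.03 and 3.82. The second was lower in 2RH30 by 2.63-fold, while the first was higher by 1.47-fold and the third differed by -0.21. Level-adjusted, the differences were 0.41, -1.36 and 0.24, and the first and the third lay above 0. Which splice form each probe set reads was not determined here. The span of 1.96 was wider than that of 80.6% of 1036 genes with 3 probe sets.

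Sst, which encodes somatostatin, an inhibitor of secretion, read 5.55 in 2RS30 and 4.65 in 2RH30. It was lower in 2RH30 by 0.91 on the log2 scale, which is 1.87-fold, and by 0.83 level-adjusted, a size at the SD between probe sets of its level. The 2RS30 values of Sst and of Calca in 1369116_a_at were identical, as both carry the value that 468 probe sets share on that array. Tac1, which encodes the precursor of substance P and neurokinin A, read 5.65 in 2RS30 and 5.56 in 2RH30, just above both medians. Its difference was -0.09, and -0.19 level-adjusted. Over the 5 peptide genes other than Adcyap1 and Vip, Pdyn and Cartpt were 2-fold or more higher in 1 probe set. That is 2 of 5, beside 11.5% of all genes, and level-adjusted both were under 2-fold, at 0.93 and 0.81. By the same threshold, 0 were lower in the brightest probe set, beside 9.62% of all genes. In another probe set 2 were lower, Calca and Pdyn, also level-adjusted, at -1.36 and -1.83. Pdyn stands in both counts, so it gives no direction.

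**Figure D3:**
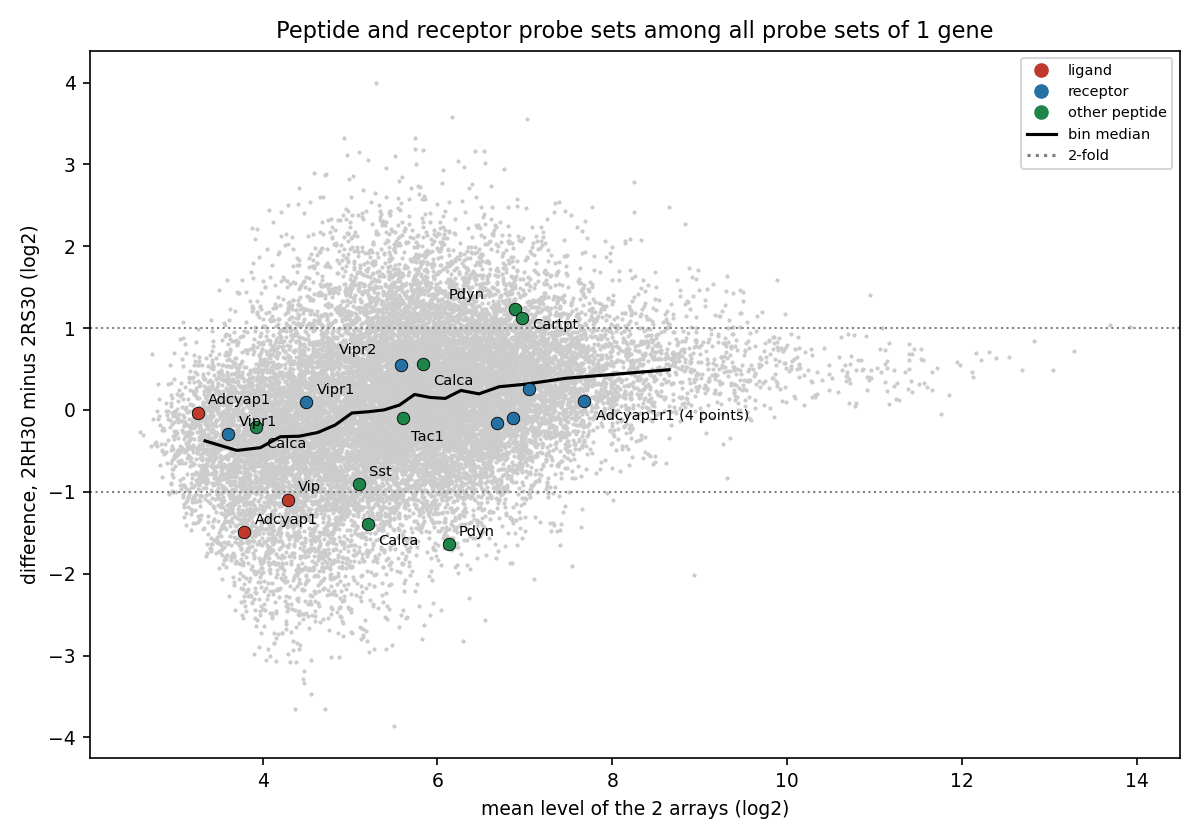
Value in 2RH30 minus that in 2RS30 (vertical, log2) by mean level over both arrays (horizontal, log2) of the 20826 probe sets of 1 gene (grey) and the 18 of the peptides and receptors (coloured by role). The black line joins the medians of 20 level bins, from -0.38 to 0.49, and dotted lines mark a 2-fold difference; the lower ligand probe sets lie at low levels, where the line is below 0.

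The promoters of these peptide genes were searched for the same letters, since Sst and several of the others are known to answer to cAMP, the messenger of the PACAP and VIP receptors. The RefSeq table of the GRCr8 assembly held a window of 300 bases for all 10 genes, from 250 before to 50 after the start. Both strands were searched, and a core inside a full palindrome was not counted again. The full palindrome was found in the windows of Sst and Cartpt, 2 of 10, and in 1.83% of 33469 promoters. A core (TGACG or, on the other strand, CGTCA) without the palindrome was found in Vip, Vipr1, Tac1 and Calca, 4 of 10, and in 19.4% of promoters. The windows of Adcyap1, Adcyap1r1, Vipr2 and Pdyn held neither. The palindrome lay at bases 3 to 10 from the start that RefSeq gives for Sst and at -142 to -135 in Cartpt, and the cores at -112 to -108 in Calca, at -206 to -202 in Tac1 and at -65 to -61 in Vipr1. The 4 stretches of the peptide genes are at chr11:90461512-90461591 (plus strand) for Sst, chr2:32991334-32991413 (minus) for Cartpt, chr1:178317598-178317677 (minus) for Calca and chr4:36645341-36645420 (plus) for Tac1, each printed on the strand of the gene with the match in capitals.
Sst: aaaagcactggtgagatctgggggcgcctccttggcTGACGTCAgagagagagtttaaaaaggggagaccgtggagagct
Cartpt: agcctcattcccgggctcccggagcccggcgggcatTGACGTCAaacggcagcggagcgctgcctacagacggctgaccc
Calca: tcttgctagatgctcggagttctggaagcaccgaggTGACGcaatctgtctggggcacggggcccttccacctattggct
Tac1: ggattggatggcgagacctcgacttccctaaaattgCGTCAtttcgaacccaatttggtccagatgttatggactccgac
The 2 genes with the full palindrome differed in opposite directions, Sst by -0.91 and Cartpt by 1.12. A match describes the letters and says nothing of binding in this tissue.

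**Figure D4:**
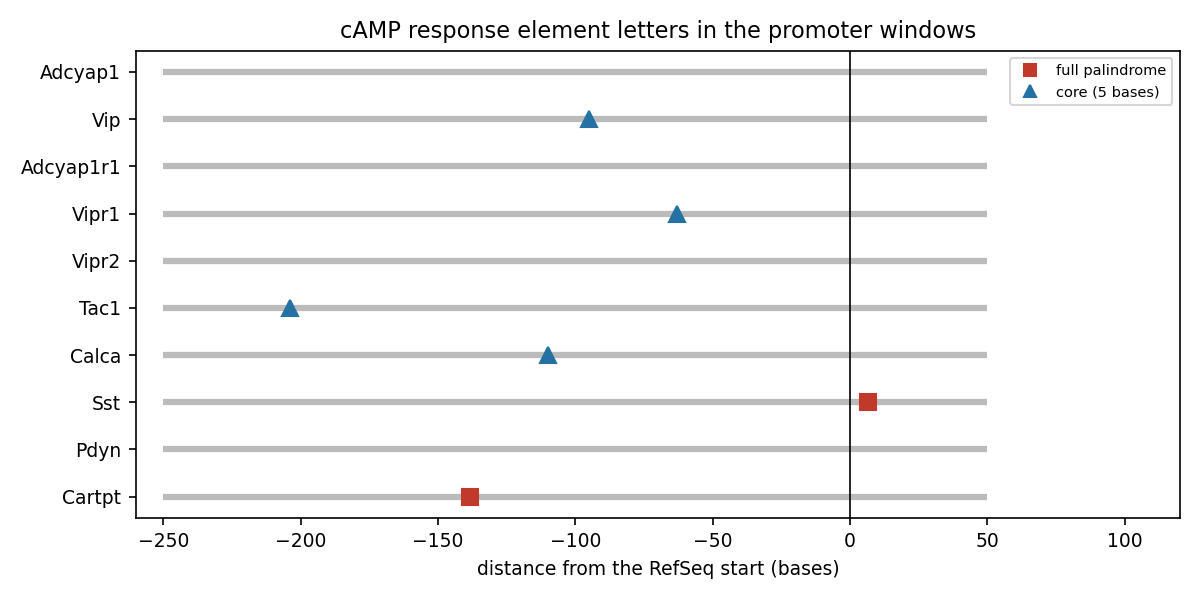
Position of the cAMP response element letters (squares, full palindrome; triangles, core) in the promoter window of each of the 10 genes (vertical axis), by distance from the RefSeq start (bases, horizontal axis). The grey bars are the windows; 2 hold the palindrome, 4 a core and 4 neither.

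Downstream of the receptors, 29 of 33 listed genes of the cAMP and phospholipase C pathways were measured. Of these 7 were 2-fold or more higher in 2RH30 and 3 lower, beside 11.5% and 9.62% of all genes. Level-adjusted, 4 were higher and 2 lower, beside 8.95% and 9.31%. The list had a median of 0.44, and of 0.17 after level adjustment, where all genes had 0.11 and 0.02. Prkar2b and Prkar1b, regulatory subunits of protein kinase A, were the highest by the naming rule. Prkar2b went from 4.37 in 2RS30 to 6.52 in 2RH30, which is 2.15 apart (level-adjusted 2.10), and Prkar1b from 4.53 to 5.90, which is 1.37 apart (level-adjusted 1.40). Under that rule the lowest were Adcy8, a calcium-stimulated adenylyl cyclase, and Crtc2, a CREB coactivator. Adcy8 differed by -1.52 (level-adjusted -1.32), with a 2RS30 value shared by 468 probe sets, and Crtc2 by -0.72 (level-adjusted -0.84). Outside the rule, the dim Rapgef4 differed by -1.84 (level-adjusted -1.40) and the dim Rapgef2 by -1.09 (level-adjusted -0.65).

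Of 15 genes known to answer to PACAP in chromaffin or related cells, all measured, 3 were 2-fold or more higher and 1 lower, as deposited and level-adjusted, and the same shares over all genes apply. The median was 0.56 as deposited and 0.06 level-adjusted. Penk, the enkephalin precursor, differed by 2.28 (level-adjusted 1.77), and Gal, the galanin precursor, by 1.34 (level-adjusted 1.30). Bdnf, a neurotrophin, had -1.92 (level-adjusted -1.94) for 1 probe set but -0.16 for the second, so its place among the lower genes rests on 1 of 2 probe sets. Fosb, an immediate-early factor, differed by -0.81 (level-adjusted -0.92). Dbh, Th and Pnmt, enzymes of epinephrine synthesis, also belong to the list. Dbh differed by 0.95 (level-adjusted 0.45, and 0.42 after quantile normalization). Th and Pnmt differed by 0.51 and 0.31 and lay below 0 level-adjusted, at -0.08 and -0.27, with Th at 0.0783 and Pnmt at -0.13 after quantile normalization.

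Of 15 measured precursors related to the peptides here or listed with them, 7 were 2-fold or more higher and 0 lower, beside 11.5% and 9.62% of all genes. Level-adjusted, 6 were higher and 0 lower, beside 8.95% and 9.31%. The median was 0.93 as deposited and 0.75 level-adjusted. Penk and Nts, the neurotensin precursor, were the highest, Nts with 2.14 (level-adjusted 2.05). The lowest were Tac3, the neurokinin B precursor, at -0.75 (level-adjusted -0.70) and Iapp, which encodes amylin, at -0.37 (level-adjusted -0.53). The study listed Penk, Nts, Gal, Nmu and Npy, the neuropeptide Y precursor, from its baseline arrays, which held other pools than these. All of them are among the 7 genes that were higher here as deposited. This list was drawn up with earlier results of the present arrays known, and its count is a description. Of 16 receptors or receptor partners of the other peptides, 9 were dim, 0 were 2-fold or more higher and 2 lower, and level-adjusted 0 and 1, where the same shares over all genes apply. Their median was -0.04, and -0.08 level-adjusted. Oprd1, the delta opioid receptor, and Ramp1, a partner of the CGRP receptor, differed by 0.54 and 0.34 (level-adjusted 0.22 and 0.17). Sstr2, a somatostatin receptor, differed by -0.47 (level-adjusted -0.66), with a dim second probe set at 0.53, and Ramp3 by -0.13 (level-adjusted -0.44).

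**Figure D5:**
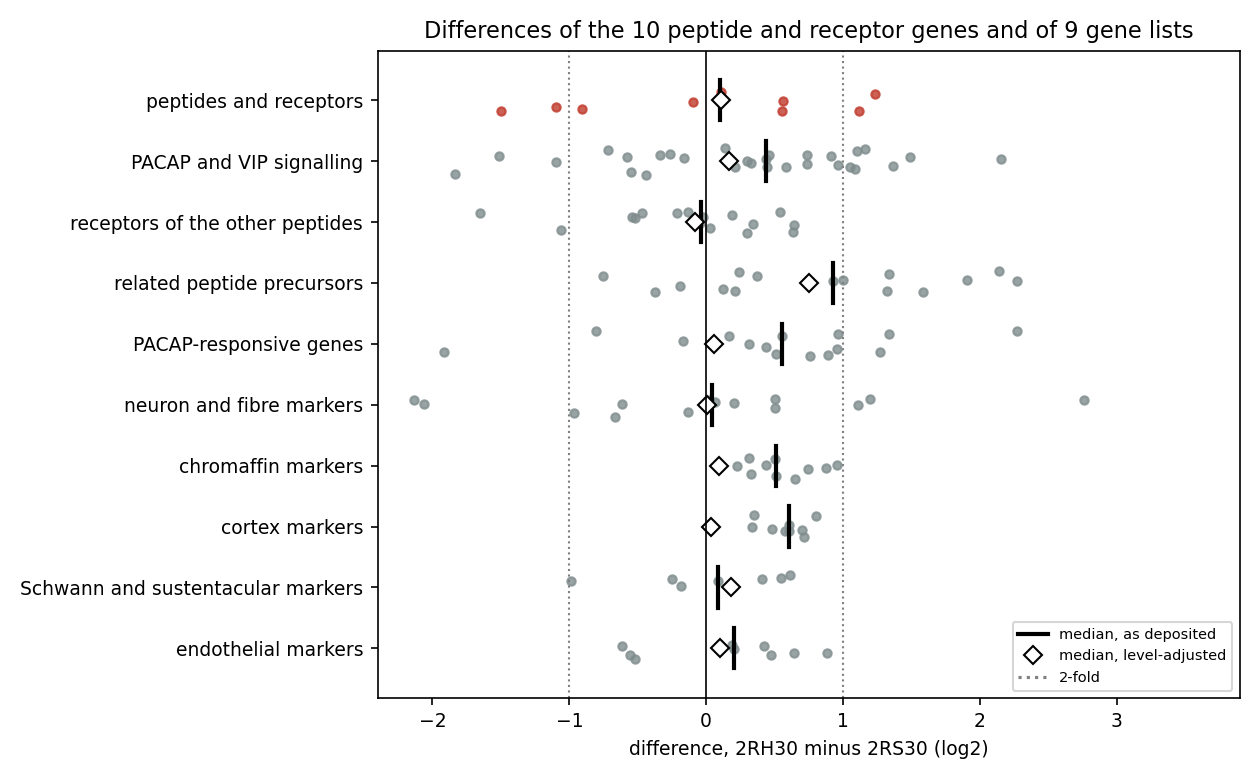
Value in 2RH30 minus that in 2RS30 (log2, along the horizontal axis) of each gene (points) of the 10 peptides and receptors and of 9 gene lists (vertical axis), each gene from its probe set of highest mean level. Bars mark the median as deposited and diamonds the level-adjusted median; the peptides and receptors have 0.10 and 0.11, and the related precursors 0.93 and 0.75.

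Markers of the cells in the dissected tissue were read beside these values. All 10 chromaffin markers and all 9 measured markers of the adrenal cortex were above the median on both arrays, with lowest values of 5.88 and 8.73 in 2RS30, so the pools held cortex RNA as well. As deposited all 19 were higher in 2RH30, with medians of 0.51 for chromaffin and 0.60 for cortex markers, and level-adjusted these medians were 0.09 and 0.03, with genes of both lists on either side of 0. The summed level of each list, as log2 of the summed linear values, was 13.0 in 2RS30 and 13.5 in 2RH30 for chromaffin markers and 14.5 and 15.1 for cortex markers. Of 14 measured neuron and fibre markers 4 were dim, namely Nefh, a neurofilament, and Chat, Slc18a3 and Slc5a7, which mark cholinergic neurons. In this list 3 genes were 2-fold or more higher and 2 lower, beside 11.5% and 9.62% of all genes, and level-adjusted 3 and 3, beside 8.95% and 9.31%. It had a median of 0.04 (level-adjusted 0.0031) and summed levels of 10.2 and 10.4. The naming rule takes genes that are not dim, with no disagreement in sign among such probe sets, and a gene can pass it through 1 array alone. Stmn2 and Nos1 were the highest by this rule, at 2.76 and 1.20 (level-adjusted 2.54 and 1.08). Both were below the median in 2RS30, at 5.01 and 5.09. Stmn2 differed by only 0.71 in its second probe set. By the same rule Gap43 and Prph were the lowest, at -2.14 and -0.66. Gap43 had -2.17 in its second probe set, and Prph had -0.86 level-adjusted. In 2RH30 Gap43 read 3.86, below the median. Outside the rule, the dim Slc5a7, the choline transporter, differed by -2.06 (level-adjusted -1.61). The other dim cholinergic markers were Chat at 0.50 (level-adjusted 0.95) and Slc18a3 at -0.13 (level-adjusted 0.09). The cholinergic markers thus had no common direction. Tubb3, a neuronal tubulin, differed by -0.96 (level-adjusted -1.19) in 1 probe set and 0.24 in the other. Isl1 was 1 of the 3 higher genes, at 1.11 (level-adjusted 1.06), but its other probe set differed by -2.10. Its place among the higher genes thus rests on 1 of 2 probe sets. Stmn2, Gap43 and Prph mark nerve cells and fibres, and Nos1 marks nitrergic neurons. The 7 measured Schwann and sustentacular markers had a median of 0.09 (level-adjusted 0.18) and summed levels of 8.42 and 8.53. The 9 endothelial ones had 0.20 (level-adjusted 0.10) and 9.21 and 9.45. Of these 2 lists 3 and 4 genes were dim. As deposited 0 were past 2-fold in their brightest probe set, beside 11.5% of all genes higher and 9.62% lower. Level-adjusted, 1 endothelial marker was 2-fold or more higher, beside 8.95% of all genes, and 0 were lower, beside 9.31%. The part of these cells in the differences of the peptides and receptors was not tested.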

How the data were processed

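For each of 2 arrays, 2RS30 and 2RH30, the authors deposited a single log2 value for every probe set, from RNA of 6 pooled rats. Their processing notes name Affymetrix Expression Console, and their methods describe the deposited data as quantile-normalized. Their methods name GCRMA, which corrects background and summarizes probes, in Partek for the study's own analysis, without saying whether it made the deposited values. Otherwise the summarization of these is not stated in those sources, the scale was taken as log2 from how far values spread, and the sorted values of the arrays differed by up to 1.45, so exact quantile normalization is not seen. Of 31099 probe sets, 57 array controls were left out. Annotation of the platform named 1 gene for 20826 probe sets, several for 436 and none for 9780; symbols were updated through RefSeq (GRCr8), where 20758 gene numbers matched.

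Differences were 2RH30 minus 2RS30, level-adjusted by lowess (fraction 0.3, 3 iterations). With 1 array in either group no test was fitted, and this number limits the precision. For genes with 2 or more probe sets, their SD was pooled over genes. The genes and lists were chosen with earlier results of these data known. Named genes were all 10 genes and, of each list, at most the 2 highest and 2 lowest that were not dim. Those taken from lists had no opposite sign among their probe sets that were not dim (a dim one may differ, as in Sstr2). A gene can pass this rule by lying above the median on 1 array alone, as Prkar2b, Prkar1b, Nts and Gal did in 2RH30. The rule thus favours large differences. Names outside this rule are Th, Pnmt, Dbh among the PACAP-responsive genes, Nmu, Npy, Rapgef2, Rapgef4, Isl1, Tubb3, Chat, Slc18a3, Slc5a7 and Nefh. These names were chosen after their values were seen. Of the chromaffin, cortex, Schwann and endothelial lists medians are given in place of names. Adjustment and scaling were run on simulated data with a straight-line trend and 200 planted differences of 2, as a check of the code only. Those data did not copy the spread, the curved trend or the repeated values of these arrays. No protein sequences were used here. Computations used statsmodels 0.14.6, scipy 1.17.1, matplotlib 3.10.9, numpy 2.4.6 and pandas 2.3.3 under Python 3.11.15.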

Additional observations from a re-analysis of the deposited data

How the results depend on the processing

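The 2 genes that were 2-fold or more higher became 0 after quantile normalization, level-adjusted, at 3-fold, and level-adjusted with the mean over probe sets, and 1 with the mean over probe sets. The 2 that were lower became 1 after quantile normalization, level-adjusted and with the mean over probe sets, and 0 without dim probe sets, at 3-fold, and level-adjusted with the mean. The median of 0.10 was 0.55 without dim probe sets and -0.27 level-adjusted with the mean. Averaging turned Pdyn from 1.23 to -0.20, or -0.45 when level-adjusted. Adcyap1 went from -1.50 to -0.76 and -0.33 in the same settings. Calca went from 0.56 to -0.35, and to -1.40 without probe sets that can match several transcripts or with a shared value. After quantile normalization the list medians were 0.23 for PACAP and VIP signalling, 0.0783 for PACAP-responsive genes, 0.15 for chromaffin and 0.061 for cortex markers. Level-adjusted, they were 0.17, 0.0585, 0.091 and 0.0333. Of the other alternative values of single genes and probe sets, 122 stayed within the SD that probe sets of 1 gene show, and 38 alternative counts and medians stayed within 1.5 times or 1 standard error over genes. Joining lowess with averaging, leaving out shared values, and scaling of the lists were added after the data were seen. Averaging brings in probe sets that differ from the brightest one, opposite in sign for Pdyn and Calca and near 0 for Adcyap1. For the other values that moved, the cause was not tested. Sst and Tac1 have no value where their only probe set is left out. The count of dim genes was not run for lowess, which changes differences only, or without dim probe sets, where it is 0 by construction. Pseudocounts were not tried on values that are already logs. No paired analysis was possible because there is only 1 array in either group, and no array could be left out. These values carry no signal over background, so how far dim probe sets can be read is not known.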

Other observations

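The repeated values of the 2RS30 array were noticed after the data were seen. The most frequent, 5.55, stood in 468 probe sets to the last digit given, whereas on the 2RH30 array no value stood in more than 25. Of the 18 peptide and receptor probe sets 4 carried a value shared by 50 or more on the 2RS30 array, those of Sst and of Calca (1369116_a_at), 1 of Adcyap1r1 and the second of Adcyap1. Without such probe sets Adcyap1, Vip, Adcyap1r1, Vipr1, Vipr2, Tac1, Pdyn and Cartpt kept their difference, Sst had no value, and Calca was read from 1369117_at, at -1.40, so that 3 genes were 2-fold or more lower in place of 2. What made these values equal was not tested.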
